A study of Bos taurus with 30 samples.

Results

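The miR-181 family in the arcuate nucleus (ARC) of the hypothalamus was described from its 4 mature miRNAs, bta-miR-181a, bta-miR-181b, bta-miR-181c and bta-miR-181d. They were taken by name from a table of 1030 bovine mature miRNAs, of which 863 had a read, and all 4 were read in every library. Small RNA was sequenced from the ARC of 30 Holstein-Friesian bull calves, with 1 library per calf. From 2 weeks of age, 15 calves on the high plane of nutrition (HI) were given 1.5 kg of milk replacer in 10 L per day with concentrates ad libitum. The other 15 calves, on the moderate plane (MOD), were given 0.5 kg in 4 L per day with 0.5 kg of concentrates. The ARC was collected from both groups at 12 weeks. It was processed as whole tissue, so fewer cells of a type and less miRNA per cell cannot be told apart.

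miRNAs are short RNAs that guide silencing complexes to messenger RNAs, chiefly through the bases near their 5′ end (the seed), and the members of the miR-181 family share a seed. The family is abundant in brain and in developing lymphocytes, where miR-181a tunes the response of T cells to antigen. Its hairpin precursors lie in clusters, each holding a pair of genes that can be transcribed together.

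In the RefSeq annotation of the ARS-UCD2.0 assembly, 6 hairpin genes on 3 chromosomes encode the family. MIR181A-1 and MIR181B-1 lie between PTPRC and NR5A2 and overlap no other annotated gene. MIR181A-2 and MIR181B-2 overlap NR6A1, which encodes an orphan nuclear receptor, and a long non-coding RNA. MIR181C and MIR181D overlap NANOS3, a gene of germ cell development. The table held 1 value for miR-181a and 1 for miR-181b, so the parts of each that came from either of its 2 hairpin genes cannot be told apart. The level of miR-181c and of miR-181d each belongs to 1 hairpin gene.

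The libraries held between 6291376 and 21083250 reads counted on miRNAs, in a group of 9 deep libraries (17193358 or more) and a group of 21 shallow ones (8988039 or fewer). miR-124a, a miRNA of neurons, was present in all 30 libraries, from 826 to 9705 CPM. CPM here stands for read counts over library sizes that were adjusted by a factor for each library (TMM). They are thus not shares of reads, and the values of a library summed to between 825695 and 1429908. Libraries also differed in a list of 9 miRNAs of pituitary and epithelial cells. Their summed level was 5853 to 91145 CPM in 9 calves (5 HI and 4 MOD) and 157 to 1638 CPM in the remaining 21 (10 HI and 11 MOD). These are called here the calves with high and with low pituitary markers, and correlations were computed within each class. The 9 calves with the lowest animal codes, 7 HI and 2 MOD, have also been found to differ from the rest in an earlier examination of these data. What the codes stand for is not given in the sources used here.

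The family took a large part of the miRNA reads. Together the 4 members made up between 7.05% of reads, in HI calf A17855 (95% exact Clopper-Pearson interval 7.04% to 7.07%), and 17% in HI calf A27823 (17% to 17.1%). miR-181a alone ranged from 48558 to 176343 CPM with a median of 61582. By mean level it was the third most abundant of the 476 miRNAs that passed the filter on low values, and it ranked between 1st and 4th in every calf.

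miR-181c was next, from 10590 to 18931 CPM with a median of 15546, at rank 18. miR-181b ranged from 1936 to 8396 CPM with a median of 2519, at rank 52. miR-181d ranged from 975 to 1954 CPM with a median of 1320, at rank 72.

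The order miR-181a, miR-181c, miR-181b, miR-181d held in each of the 30 calves. Geometric means of the ratios within a calf were 4.35 for miR-181a to miR-181c, 5.54 for miR-181c to miR-181b and 2.02 for miR-181b to miR-181d. Every one of the 6 pairs differed in level (two-sided permutation test with sign flips, p = 2e-05 and adjusted p = 2e-05 over the 6 pairs, the smallest that the resampling can give). Thus no neighbours in this order were level with each other beyond their spread, although they share a seed. Reads are of whole mature miRNAs, so these levels need no scaling for length, but ligation and amplification can favour 1 sequence over another and absolute ratios carry that limit.

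Of the members encoded in the same kind of cluster, miR-181a and miR-181b kept a nearly fixed ratio, and miR-181c and miR-181d a looser one. The ratio between clusters varied widely from calf to calf. The ratio of miR-181a to miR-181b had an SD of 0.087 on the log2 scale (n = 30), with a mean of 24.1. The ratio of miR-181c to miR-181d ran from 9.45 to 14.35, with a mean of 11.2. Its median was 10.2 among the 9 lower animal codes (9.45 to 11.06) and 11.7 among the other 21 (9.47 to 14.35). That difference was not tested. The SD of this ratio was 0.16, not far below the SDs of 0.21 for miR-181c and 0.23 for miR-181d themselves. For ratios between clusters the SD was larger, at 0.59 for miR-181a to miR-181c and 0.55 for miR-181b to miR-181d.

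The ratio of miR-181a to miR-181c ran from 2.69 in MOD calf A38765 to 16.7 in HI calf A27823. The next highest ratios were 9.135 in MOD calf A97821 and 9.11 in HI calf A47858. These ratios do not depend on how a library is scaled. The least read member, miR-181d, had at least 7490 reads in every library, for which counting error alone is an SD of at most 0.017 on the log2 scale.

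**Figure D1:**
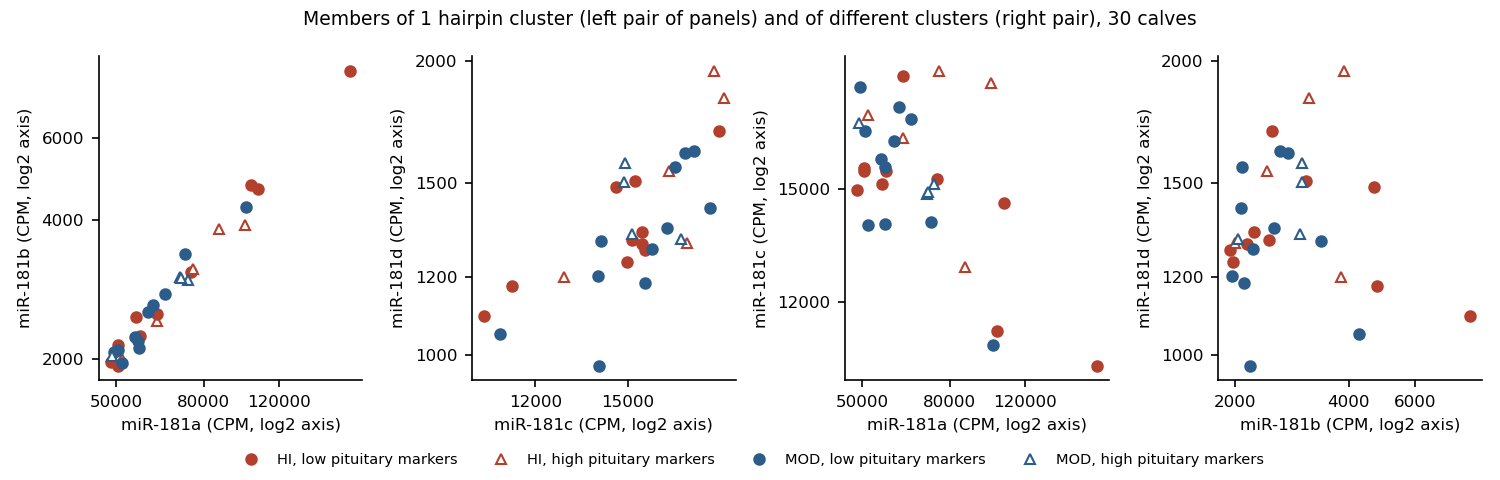
Level of one member against another in each of the 30 calves, in CPM on log2 axes, with HI in red, MOD in blue, and open triangles for the 9 calves with high pituitary markers. miR-181a and miR-181b lie along a line (r = 0.99 in the 21 calves with low pituitary markers), miR-181c and miR-181d less closely (r = 0.75), and HI calf A27823 stands at the highest miR-181a and the lowest miR-181c.

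For ratios and correlations, a relation is said here to pass at an adjusted p below 0.05. Across the 21 calves with low pituitary markers, miR-181a and miR-181b rose and fell together (Pearson's r = 0.99, Spearman's rho = 0.95, permutation p = 1e-05 for each, adjusted p = 6e-05 over 6 pairs, the smallest possible). In the 9 calves with high pituitary markers, r was 0.98 (exact permutation p = 4.41e-05, adjusted p = 0.000265) and rho 0.92. miR-181c and miR-181d were correlated in the 21 calves with r = 0.75 (permutation p = 0.00014, adjusted p = 0.00042) and rho = 0.76. In the 9 calves r was 0.65, which did not pass (exact permutation p = 0.0589, adjusted p = 0.177). Without the 2 calves farthest from the median of the first member, r in the 21 calves was 0.98 for the first pair and 0.68 for the second.

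The abundant members of the different clusters, miR-181a and miR-181c, had a negative relation in the 21 calves that passed by Pearson's r and did not pass by rank. Their r was -0.74 (permutation p = 0.00061, adjusted p = 0.00115), while rho was -0.38 (permutation p = 0.0912, adjusted p = 0.176). The low values of miR-181c lay in a few calves. The 3 lowest values of miR-181c among all 30 calves, 10590 in HI calf A27823, 11018 in MOD calf A97821 and 11329 in HI calf A47858, went with miR-181a levels of 176343, 100650 and 103208 CPM. Without the 2 calves farthest from the median of miR-181a, r was -0.67, and without HI calf A27823 it was -0.62. With libraries scaled by the upper quartile, r was -0.34 and the relation did not pass (adjusted p = 0.2).

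The same relation was seen for miR-181b and miR-181c, with r = -0.72 (permutation p = 0.00077, adjusted p = 0.00115) and rho = -0.35, and r = -0.44 without the 2 farthest calves. It also weakened to -0.34 with upper quartile scaling. In the 9 calves with high pituitary markers neither pair showed a relation that passed, with r = -0.17 for miR-181a and miR-181c (exact permutation p = 0.654) and r = -0.29 for miR-181b and miR-181c (exact permutation p = 0.451). Whether the classes differ in this was not tested. By depth, the r of miR-181a with miR-181c in the 21 calves was -0.93 in the 6 deep and -0.67 in the 15 shallow libraries, and it was -0.81 in the 16 calves with higher animal codes. The 5 calves with lower codes were too few for a value.

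miR-181d showed no relation to miR-181a or miR-181b that passed. Their r in the 21 calves was -0.24 (permutation p = 0.292) and -0.20 (permutation p = 0.378). Both values changed sign with upper quartile scaling, to 0.16 and 0.18, and passed the test when libraries were scaled by size alone, at -0.64 and -0.59, as well as with the means of the animal code classes removed, at -0.60 and -0.53 (permutation, adjusted p = 0.00601 and 0.015).

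Calf-to-calf spread also differed within the family. On the log2 scale the SD over the 30 calves was 0.44 for miR-181a and 0.49 for miR-181b, above the median SD of 0.37 among the 476 tested miRNAs. It was 0.21 for miR-181c and 0.23 for miR-181d, both below that median. Without HI calf A27823 the SD was 0.35 for miR-181a and 0.39 for miR-181b against a median of 0.365, so miR-181a then lay below it.

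The question of the feeding trial was whether early-life nutrition alters the ARC, and the diet groups were compared for each member. miR-181a was between 48558 and 176343 CPM in HI calves (median 62306) and between 48981 and 100650 in MOD calves (median 59206). The ranges overlapped, with 3 HI calves above all MOD calves and 1 below them. The mean of log2(CPM + 0.25) was higher in HI by 0.23 (SE 0.15, 95% interval -0.08 to 0.54, n = 15 and 15), and the difference did not pass the test (limma with Benjamini-Hochberg adjustment over 476 miRNAs, adjusted p = 0.912, unadjusted p = 0.144).

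miR-181b ranged from 1936 to 8396 CPM in HI calves (median 2508) and from 1957 to 4262 in MOD calves (median 2530). Its HI median lay slightly below that of MOD, while its mean log2 level was higher in HI by 0.24 (SE 0.17, 95% interval -0.11 to 0.59, limma adjusted p = 0.912). The highest HI value, in calf A27823, lay far above the rest of both groups.

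miR-181c was between 10590 and 18931 CPM in HI calves (median 15542) and between 11018 and 18336 in MOD calves (median 15649). These distributions lay over each other, with a log2 difference, HI minus MOD, of -0.02 (SE 0.08, 95% interval -0.18 to 0.15, limma adjusted p = 0.984). For miR-181d the HI values ran from 1096 to 1954 CPM (median 1309) and the MOD values from 975 to 1615 (median 1328), with a log2 difference of 0.06 (SE 0.09, 95% interval -0.11 to 0.24, limma adjusted p = 0.982).

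**Figure D2:**
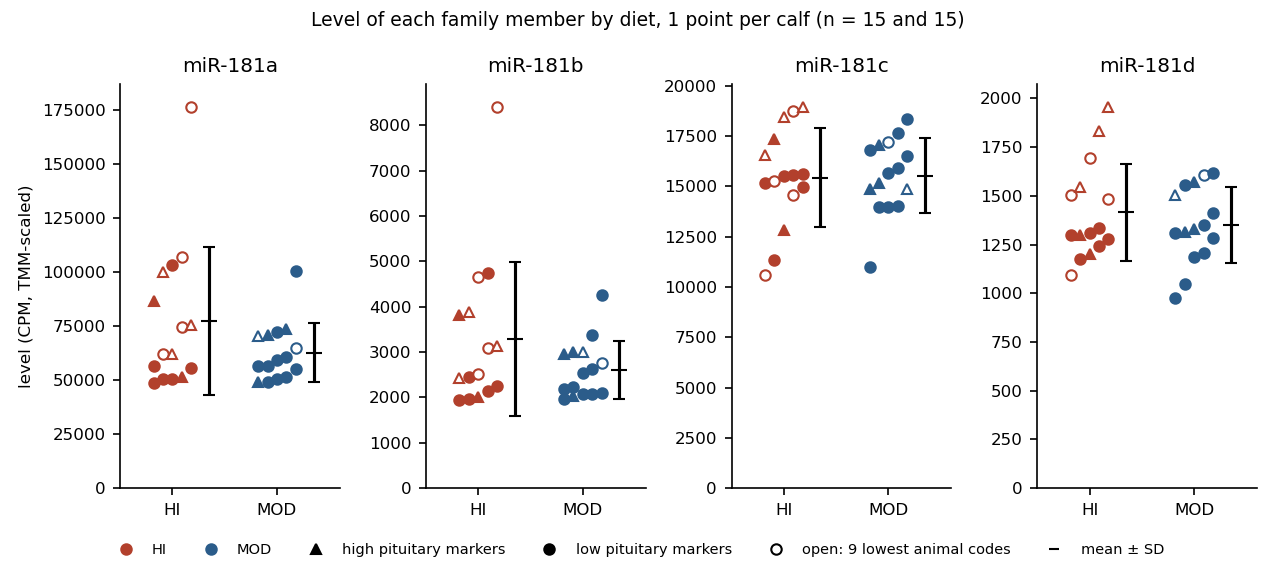
Level of each member in CPM on axes that start at 0, with 1 point per calf, triangles for calves with high pituitary markers, open symbols for the 9 lowest animal codes, and black bars for the mean and SD of each diet (n = 15). HI and MOD overlap for all 4 members, and HI calf A27823 lies apart at 176343 CPM of miR-181a and 8396 CPM of miR-181b.

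A call required a fold change over 1.5 together with an adjusted p below 0.1. None of the 4 members was called, in a comparison where 0 of 476 miRNAs (0%) were called by limma, 0 by edgeR and 1, miR-2419-3p, by DESeq2. By limma, 21 of the 476 had an unadjusted p under 0.05 and none of them was a member. The intervals of miR-181c and miR-181d excluded a fold change of 1.5 in either direction, also under each of 3 other scalings. That of miR-181a excluded it in limma as run here but not with upper quartile scaling (upper end 0.63 on the log2 scale), and that of miR-181b reached it at its upper end. Single-value permutation tests of the log2 difference gave p = 0.159 for miR-181a, 0.195 for miR-181b, 0.824 for miR-181c and 0.456 for miR-181d (two-sided permutation tests, 15 against 15).

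The differences of miR-181a and miR-181b were smaller without 1 calf and once the animal codes were taken into account. Without HI calf A27823 the log2 differences were 0.14 and 0.13. miR-181a was between 62185 and 176343 CPM in the 9 calves with the lowest codes (median 74825). In the other 21 it was between 48558 and 103208 (median 56362). As a share of reads, its medians lay closer, at 6.65% in those 9 and 6.1% in the other 21. Of those 9 calves, 7 were HI. HI calf A27823 was among them, so leaving it out and accounting for the codes are checks that overlap. With the code class as a term in the fit, the diet difference was 0.09 for both miR-181a and miR-181b. Within the 21 calves with higher codes it was -0.0047 for miR-181a (exact permutation p = 0.995, 8 HI and 13 MOD) and 0.01 for miR-181b (exact permutation p = 0.933). Within the 9 with lower codes it was 0.38 for miR-181a (exact permutation p = 0.333, 7 HI and 2 MOD).

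By sequencing depth, the diet difference of miR-181a was 0.28 in the deep libraries (exact permutation p = 0.381) and 0.25 in the shallow ones (exact permutation p = 0.224), and that of miR-181b was 0.34 and 0.27. The sign of the other members differed by depth. miR-181c was at -0.21 in the deep libraries (exact permutation p = 0.31) and 0.02 in the shallow ones (exact permutation p = 0.843), and miR-181d at -0.18 (exact permutation p = 0.286) and 0.15 (exact permutation p = 0.17). No member's diet difference was shown to vary with pituitary markers, depth or code class (limma interaction terms, lowest adjusted p = 0.815).

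**Figure D3:**
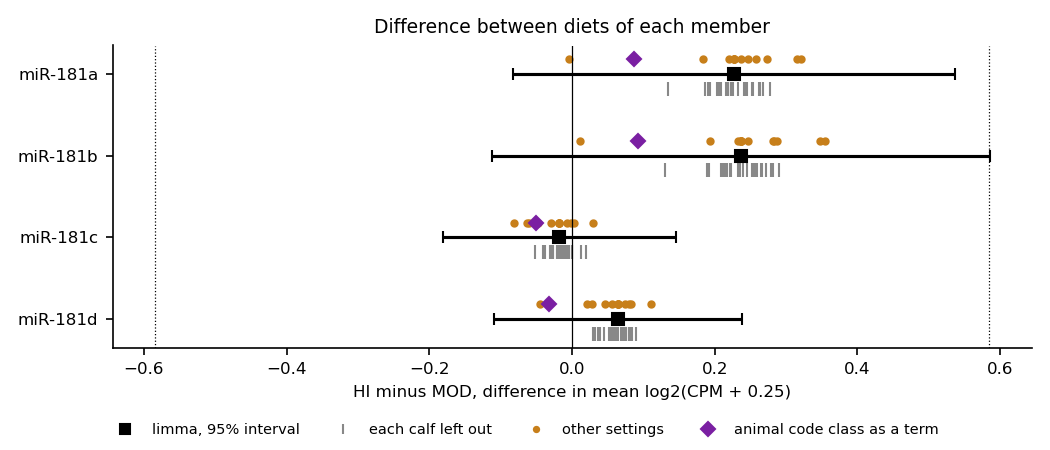
Difference between diets, HI minus MOD, in mean log2(CPM + 0.25) of each member: black squares with 95% intervals from limma, grey ticks with each calf left out, orange points under other settings and purple diamonds with the animal code class as a term. Dotted lines mark a fold change of 1.5, all 4 intervals include 0, and the diamonds of miR-181a and miR-181b sit at 0.09.

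No difference between diets in the balance within the family passed the test. The log2 ratio of miR-181a to miR-181b was 4.59 ± 0.10 in HI and 4.59 ± 0.08 in MOD (SD, n = 15 each, permutation p = 0.775). The log2 ratio of miR-181a to miR-181c was 2.24 ± 0.70 in HI and 2.00 ± 0.43 in MOD (permutation p = 0.269, adjusted p = 0.501 over 6 pairs). That of miR-181c to miR-181d was 3.45 ± 0.15 in HI and 3.53 ± 0.17 in MOD (permutation p = 0.172, adjusted p = 0.501). Without HI calf A27823 the diet difference in log2 ratio fell from 0.24 to 0.12 for miR-181a to miR-181c. For miR-181a to miR-181d it fell from 0.16 to 0.046.

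No member passed the test between calves with high and low pituitary markers, where much of the table moved. In that comparison, with diet in the model, 118 of the 476 miRNAs (24.8%) passed the thresholds and 290 (60.9%) had an adjusted p under 0.1 at any fold. None of the 4 members was among either. The 476 include 7 miRNAs of the list that set the classes, for which this comparison is no test. For miR-181d, the 9 calves with high markers held 1200 to 1954 CPM (median 1503) and the 21 with low markers 975 to 1694 (median 1307), so the ranges overlapped. Its log2 difference was 0.17 (SE 0.09, limma adjusted p = 0.104). Its adjusted p was 0.0542 in limma with DESeq2 size factors, and on recovered reads 0.0555 by edgeR and 0.0479 by DESeq2, each at a fold change under 1.5.

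The differences of miR-181a, miR-181b and miR-181c were 0.07, 0.04 and 0.11 (limma adjusted p = 0.768, 0.884 and 0.306). For comparison, the median absolute difference over the 476 miRNAs was 0.32. The direction of all 4 members turned when libraries were scaled by size alone, which moved the median of all miRNAs by -0.24, and that of miR-181a and miR-181b turned also with upper quartile scaling, which moved the median by -0.10.

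**Figure D4:**
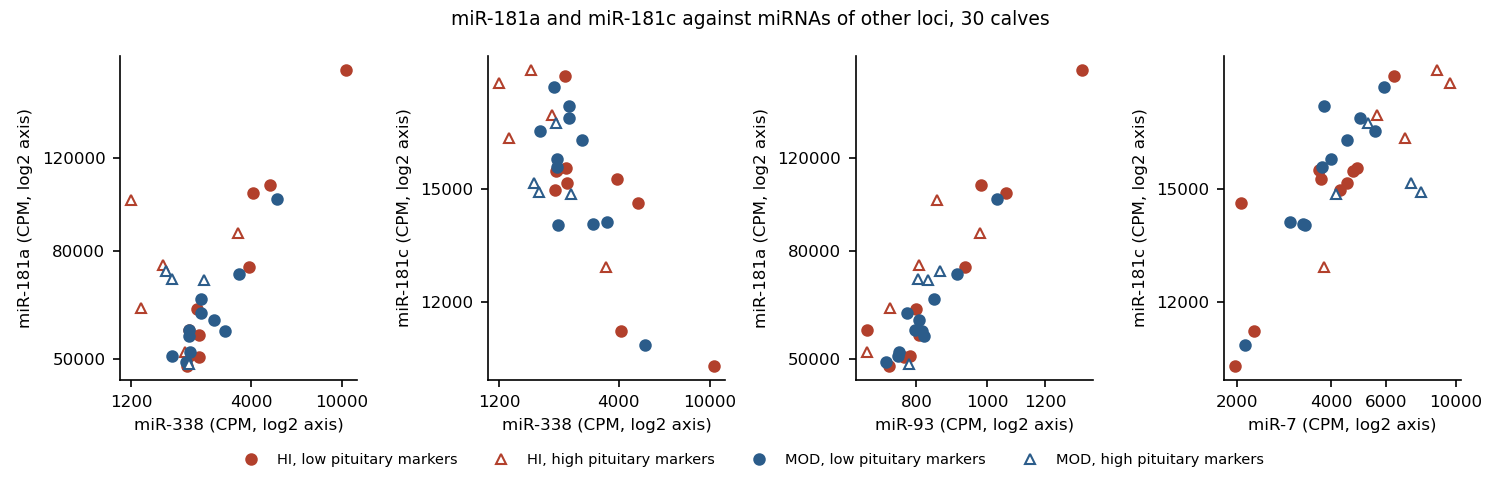
Level of miR-181a or miR-181c against miR-338, miR-93 or miR-7 in each of the 30 calves, in CPM on log2 axes, with HI in red, MOD in blue, and open triangles for the 9 calves with high pituitary markers. Among the filled points miR-181a rises with miR-338 (r = 0.96) and miR-93 (r = 0.96) and miR-181c rises with miR-7 (r = 0.87). In the panel of miR-181a the open triangles do not follow miR-338 (r = -0.12).

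The miRNAs outside the family whose levels were most like those of each member were listed over the 21 calves with low pituitary markers, by Pearson's r of log2 levels. These r values describe calves that share library scaling, and they chose the miRNAs named, so they carry no test. For miR-181a they were miR-93 (r = 0.96), miR-338 (0.96), miR-219-3p (0.93), miR-27b (0.91) and miR-27a-3p (0.90). For miR-181b they were miR-93 (0.96), miR-338 (0.95), let-7a-5p (0.92), miR-219-3p (0.91) and miR-27b (0.90). miR-338 and miR-219 are known for promoting the maturation of oligodendrocytes, the cells that form myelin.

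miR-338 ran from 1812 to 10419 CPM in these calves with a median of 2367, and its highest value was in HI calf A27823, which also had the highest miR-93, miR-27a-3p, miR-27b, miR-219-3p and let-7a-5p of the 21. Without that calf, the r of miR-181a was 0.92 with both miR-93 and miR-338. In the 9 calves with high pituitary markers, the r of miR-181a was 0.75 with miR-93, -0.12 with miR-338 and -0.0076 with miR-219-3p. The high r with miR-338 and miR-219-3p was thus seen in the larger class, and its difference from the smaller one was not tested.

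The miRNAs most like miR-181c were different ones. They were miR-7 (r = 0.87), a miRNA of neuroendocrine cells, miR-301a (0.86), miR-154b (0.86), miR-323b-3p (0.82) and miR-129 (0.79). miR-181d was most like miR-2465 (0.72), miR-154b (0.70), miR-29d-3p (0.66), miR-486 (0.65) and miR-212 (0.64). In calves with high pituitary markers, r of miR-181d was -0.34 with miR-154b and -0.21 with miR-486, and r of miR-181c with miR-154b was 0.12. Of these, miR-2465 and miR-29d-3p were read at low levels, 1.04 to 7.7 CPM. No miRNA outside the family was as close to miR-181a or miR-181b as they were to each other, and none as close to miR-181d as miR-181c, whereas miR-181d was only the 13th closest to miR-181c.

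Against the neuron, oligodendrocyte, endothelium and choroid plexus lists, as against the other 3 lists tested, miR-181a and miR-181b had the opposite sign of r to miR-181c and miR-181d in the 21 calves with low pituitary markers. With upper quartile scaling all 4 members had a positive r with the neuron list (0.19, 0.20, 0.23 and 0.34). Among the 9 calves with high markers, all 4 members had a negative r with the neuron list, from -0.61 to -0.39, and none passed (exact permutation, lowest adjusted p = 0.283 over 28 relations). The relation to neurons was tested as the mean log2 level of 10 neuronal miRNAs in the 21 calves. Its r was -0.60 with miR-181a (permutation p = 0.00495, adjusted p = 0.0164 over the 4 members, rho = -0.52 with adjusted p = 0.0629) and -0.57 with miR-181b (permutation p = 0.0082, adjusted p = 0.0164, rho = -0.46 with adjusted p = 0.0765). It was 0.33 with miR-181c and 0.16 with miR-181d, which did not pass (permutation p = 0.146 and 0.49).

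The negative relations depended on a few calves and on the scaling. Without HI calf A27823 they were -0.35 and -0.31, and leaving out the 2 calves at most distance from the list's median gave -0.41 and -0.38. With upper quartile scaling they turned to 0.19 and 0.20. Within the higher animal codes they were -0.292 and -0.233, within the deep libraries -0.598 and -0.585, and within the shallow ones -0.733 and -0.739. Neither passed with DESeq2 size factors (permutation, adjusted p = 0.16 for both) or with the means of the animal code classes removed (permutation, adjusted p = 0.0788 for both). The neuronal miRNAs did not move as one. miR-181a had an r of 0.85 with miR-9-5p and -0.89 with miR-137, and 4 of the 10 rows were positive. The rows of miR-124a and miR-124b held the same values. Counted once, 3 of 9 were positive, and the r of the list was -0.72 with miR-181a and -0.69 with miR-181b (permutation, adjusted p = 0.00128 and 0.00136 over the 4 members).

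Only the test of the neuron list was planned, and those of the other lists were added to it. The oligodendrocyte list gave larger correlations, and its miR-338 was also picked above among those most like miR-181a and miR-181b in these calves. The mean log2 level of its 2 tested miRNAs, miR-338 and miR-219-5p, had an r of 0.91 with miR-181a (permutation p = 1e-05, adjusted p = 0.00014 over 28 relations of 7 lists with the 4 members, rho = 0.68 with adjusted p = 0.00933). It had an r of 0.89 with miR-181b (adjusted p = 0.00014, rho = 0.65) and of -0.81 with miR-181c (permutation p = 6e-05, adjusted p = 0.00056, rho = -0.79 with adjusted p = 0.00196). For miR-181d r was -0.45 (adjusted p = 0.0906), and it varied with the setting. It was -0.80 with libraries scaled by size alone and -0.05 with upper quartile scaling. Within the deep libraries it was -0.93, within the shallow ones -0.24 and within the higher animal codes -0.66.

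Without HI calf A27823 these r values were 0.84 for miR-181a and -0.73 for miR-181c. Leaving out the 2 calves farthest from the list's median gave 0.79 and -0.62. With upper quartile scaling they were 0.92 and -0.47. Within the deep libraries r was 0.90 for miR-181a and -0.91 for miR-181c, within the shallow ones 0.92 and -0.80, and within the higher animal codes 0.82 and -0.86. The summed level of the list was 1910 to 11332 CPM in these 21 calves, 1254 to 11332 in all HI and 1811 to 5800 in all MOD calves, and none of its 3 miRNAs was at 0 throughout.

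In the 9 calves with high pituitary markers the same list had an r of -0.07 with miR-181a (exact permutation p = 0.863) and of -0.78 with miR-181c (exact permutation p = 0.0126, adjusted p = 0.124 over 28 relations). The difference between the classes was not tested.

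miR-126, a miRNA of endothelium, went the same way as the oligodendrocyte list. In the 21 calves the mean log2 level of its 2 arms had an r of 0.67 with miR-181a (permutation p = 0.00073, adjusted p = 0.00409, rho = 0.71) and of -0.62 with miR-181c (permutation p = 0.00276, adjusted p = 0.011, rho = -0.55). The summed level of both arms was 13326 to 27576 CPM in these calves. With libraries scaled by size alone r was 0.34 with miR-181a, and with upper quartile scaling it was -0.36 with miR-181c. Calves with high pituitary markers gave an r of 0.75 with miR-181a (exact permutation p = 0.0221, adjusted p = 0.124).

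The choroid plexus and ependyma list of 7 miRNAs went the other way, with an r of -0.60 with miR-181a (permutation p = 0.00469, adjusted p = 0.0154), whose rho of -0.34 did not pass (adjusted p = 0.201). Its r was 0.72 with miR-181c (permutation p = 0.00032, adjusted p = 0.00224, rho = 0.58 with adjusted p = 0.03) and 0.51 with miR-181d (adjusted p = 0.0455, rho = 0.53). Of its members miR-34b and miR-34c, known from ciliated cells, were the closest to miR-181a and miR-181c, with r values of -0.80 and -0.79 with miR-181a and 0.75 and 0.74 with miR-181c. For miR-449a, miR-449b and miR-449c, r was -0.24, -0.35 and -0.21 with miR-181a and 0.47, 0.51 and 0.44 with miR-181c. With miR-181d these were closer (0.49, 0.43 and 0.46) than miR-34b and miR-34c (0.37 and 0.36). The most abundant of the list, miR-204, had an r of -0.26 with miR-181a and 0.15 with miR-181c, and miR-211 had an r of 0.09 with miR-181c and -0.11 with miR-181d. The summed level of the list was 22285 to 44671 CPM in these calves. Without the 2 farthest calves, r was -0.46 with miR-181a, 0.49 with miR-181c and 0.36 with miR-181d, and with upper quartile scaling it was 0.38 with miR-181d. Among calves with high pituitary markers it was -0.64 with miR-181a, -0.16 with miR-181c and -0.54 with miR-181d (exact permutation p = 0.0676, 0.678 and 0.134), so the values of miR-181c and miR-181d had the opposite sign to those in the 21 calves.

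**Figure D5:**
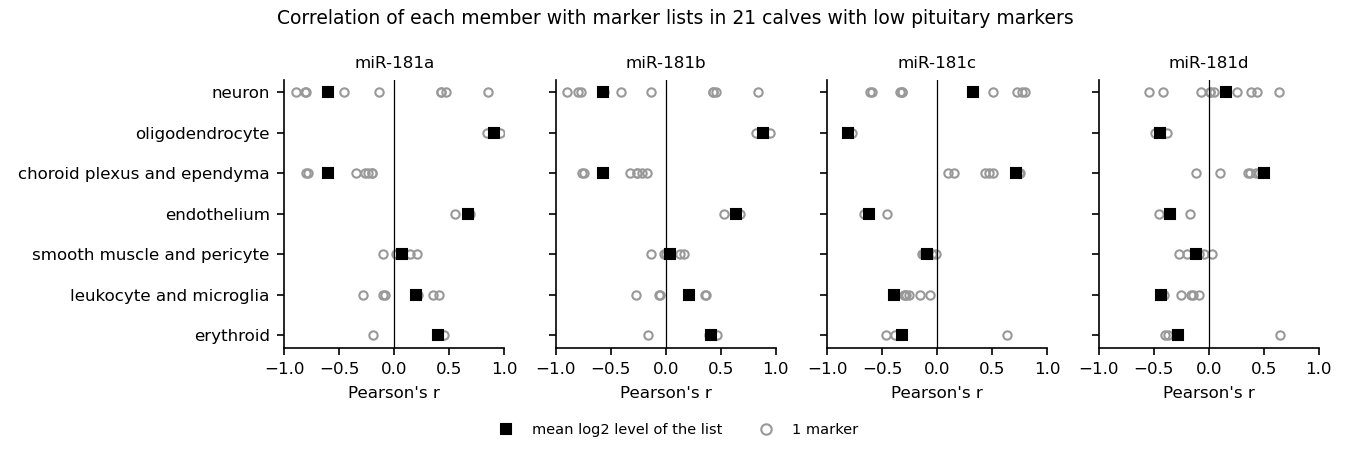
Pearson's r of each member with the mean log2 level of 7 lists of cell type miRNAs (black squares) and with each miRNA of a list (grey circles) in the 21 calves with low pituitary markers. On the oligodendrocyte list miR-181a sits at 0.91 and miR-181c at -0.81, and the circles of the neuron list spread over both sides of 0.

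How far the cell types sampled with the ARC, the position of the dissection, or a change within cells each took part in these correlations was not tested. The lists hold few miRNAs, and several are also expressed by cells other than those that name the list.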

How the data were processed

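ARC tissue of 30 calves was sequenced as small RNA. The authors trimmed reads, kept those of 15 to 28 bases, removed other short RNAs and counted known bovine miRNAs with miRDeep2 on ARS-UCD1.2. The submitters' processing notes list FastQC 0.11.8, cutadapt 2.6, R 3.4 and edgeR 3.5. The labels name a stranded RNA kit where the methods name a small RNA kit. The signal values the authors deposited, 1 per calf and miRNA, have the form of CPM over TMM-scaled library sizes. Dividing by the worth of 1 read gave whole reads (within 0.02) for 94.5% to 97.9% of values under 200 reads. Reads of miR-181c and miR-181d were whole in all 30 libraries, those of miR-181a in 14 and miR-181b in 19, the others lying up to 0.5 of a read off. How reads that differ from a member by a base were assigned was not tested.

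Because the values were not counts, diet was tested with limma 3.58.1 (lmFit, eBayes with trend) on log2(CPM + 0.25), adjusted over the 476 miRNAs passing filterByExpr on recovered reads (1.16 CPM in at least 14 libraries). edgeR 4.0.16 and DESeq2 1.42.0 on recovered reads were alternatives. Single values, ratios and correlations used two-sided permutation tests with 100000 resamples, exact where a group or a correlation had under 10 calves, in Python 3.11.15 with scipy 1.17.1 (R 4.3.3 for models). The fits and tests were tested on simulated data. The pituitary classes were split at the widest gap of the list's mean log2 level, and depth classes likewise follow a gap in reads. Other settings were 3 scalings, the filter, 3 pseudocounts, class terms and leaving out each calf.

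The members and all lists were chosen with earlier results of these data known. Named miRNAs are the members, those past the diet thresholds, the 5 most alike each member in the 21 calves, and the lists. No other arm of a miR-181 hairpin was in the table. Sequences, and therefore miRNAs of the same seed, were not used here. Intervals of read shares cover counting error only, and those of diet differences the spread between calves.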

Additional observations from a re-analysis of the deposited data

How the results depend on the processing

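No paired analysis was possible because each calf had 1 diet and the labels give no replicate numbers, so the numbers used here only name calves. Under every setting run, the 4 members stayed outside the diet thresholds, but some directions turned. The diet difference of miR-181c was 0.029 with upper quartile scaling, which moved the median of all miRNAs by 0.046, and 0.0022 by DESeq2. That of miR-181d was -0.032 with the animal code class as a term and -0.044 in the 21 higher codes, where miR-181a was at -0.0047 (a restriction chosen after seeing the data). The number of miRNAs passing for diet was 1 by DESeq2, and 0 to 1 with each calf left out, miR-2419-3p each time (without HI replicate 11 or MOD replicate 15).

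For pituitary markers, scaling by library size alone gave -0.17, -0.20, -0.13 and -0.067 for miR-181a, b, c and d. Upper quartile scaling gave -0.032 for miR-181a and -0.062 for miR-181b, and the animal code term gave -0.00747 and -0.041. miR-181b was at -0.015 by edgeR and -0.0073 by DESeq2. The number passing ran from 83 to 141 with each calf left out, and from 106 to 152 under the other settings.

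Of the correlations in the 21 calves, those of miR-181a with miR-181b and of miR-181c with miR-181d kept their direction and passed under the scalings, pseudocounts, removal of class means and omission of single calves, at 0.98 to 0.99 and 0.71 to 0.88. Upper quartile scaling gave -0.344 for miR-181a with miR-181c, -0.34 for miR-181b with miR-181c, 0.155 for miR-181a with miR-181d, 0.176 for miR-181b with miR-181d, and 0.187 and 0.199 for miR-181a and miR-181b with the neuron list. Scaling by library size alone gave -0.645 and -0.589 for miR-181d with miR-181a and miR-181b, and 0.736 and 0.588 for miR-181c and miR-181d with the neuron list. DESeq2 size factors gave -0.415 and -0.391 for miR-181a and miR-181b with the neuron list, neither of which passed. With animal code class means removed, chosen after seeing the data, miR-181d was at -0.598 with miR-181a and -0.527 with miR-181b, both of which passed, and the neuron list at -0.446 with miR-181a and -0.416 with miR-181b, neither of which passed. Counting the identical neuron rows once was also chosen after seeing the data and changed no call. The causes were not tested.

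With each calf left out, the diet difference of miR-181c ran from -0.052 to 0.020 and that of the miR-181a to miR-181b ratio from -0.022 to 0.0044. The pituitary difference of miR-181b ran from -0.0044 to 0.13. The neuron list's r ran from -0.667 to -0.349 with miR-181a, from -0.648 to -0.305 with miR-181b and from -0.0094 to 0.273 with miR-181d. The calf at the upper end of these r values for miR-181a and miR-181b was HI calf A27823. Every member had at least 7490 reads per library, so counting error is small for the family.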

Other observations

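For the remaining lists of cell type miRNAs, no relation to the family reached an adjusted p below 0.05 in the 21 calves with low pituitary markers. With the leukocyte and microglia list r was 0.20 for miR-181a, 0.21 for miR-181b, -0.40 for miR-181c and -0.43 for miR-181d (lowest adjusted p = 0.105), and by rank the lowest adjusted p was 0.0932, for miR-181d with rho = -0.47. With the erythroid list r was 0.40, 0.41, -0.32 and -0.28 (lowest adjusted p = 0.119 for r), and with the smooth muscle and pericyte list 0.07, 0.04, -0.09 and -0.12 (lowest adjusted p = 0.68 for r). With scaling by library size alone, the leukocyte values of miR-181a, miR-181b and miR-181c changed sign, as did the smooth muscle values of miR-181a and miR-181b. With upper quartile scaling, r of miR-181a and miR-181b was 0.518 and 0.525 with the leukocyte list and 0.54 and 0.55 with the erythroid list, with no test run on these values. By depth, the erythroid list had an r of -0.953 with miR-181c and -0.985 with miR-181d in the 6 deep libraries. In the 15 shallow ones these were 0.02 and 0.04. The leukocyte list had an r of 0.73 with miR-181a and 0.80 with miR-181b in the deep libraries, and -0.03 with each in the shallow ones. Differences by depth were not tested.

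Within the same 21 calves miR-375, a miRNA of endocrine cells on the pituitary list, ran from 75.8 to 1268 CPM. It had an r of -0.77 with miR-181a and 0.75 with miR-181c, while miR-182 of the same list had an r of 0.22 and -0.11. These values were picked after they were seen and carry no test.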
